A study of Homo sapiens with 24 samples.

Results

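Olaparib was given alone to cells labelled MOLM-13, an established human line of acute myeloid leukemia, and their messenger RNA was set against that of cells given vehicle. The comparison rests on 6 of the 24 libraries of the study, chosen by their labels: 3 with olaparib at 1 µM and 3 with vehicle (PBS and DMSO), each after 72 h. MOLM-13 is known to carry the KMT2A-MLLT3 fusion and an internal tandem duplication of the receptor kinase gene FLT3, neither of which was checked in these libraries. All cells grew in RPMI medium with fetal bovine serum, and each line is a single culture model and not a set of patients. A further 6 MOLM-13 libraries, 3 with L-ascorbic acid (LAA, vitamin C) at 250 µM plus olaparib and 3 with LAA alone, entered the same fit. The 12 libraries labelled THP-1, known as another KMT2A-MLLT3 leukemia line, had the same 4 treatments and served for comparison. Nothing in the labels tells whether replicates came from separate cultures. The p-values therefore measure the spread between these libraries, which may be technical.

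Olaparib blocks the catalytic site of PARP1 and PARP2, enzymes that bind DNA breaks and mark proteins there with chains of ADP-ribose. Blocked enzyme stays on the DNA, replication forks stall, and cells that lack homologous recombination are the most sensitive. Responses to such damage in other cells include p53 target genes, interferon-stimulated genes switched on by stray DNA, and stress and metabolic programs.

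Total counts were 18666259, 19557708 and 22750755 in the olaparib libraries and 23093009, 20239824 and 25265870 in the vehicle libraries. Levels are counts per 1000000 (CPM) after TMM scaling. Fold changes are log2, olaparib over vehicle, ± SE, and each comparison had 3 libraries per group.

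The identity of the cells has to be stated before any gene. Across 17089 genes the vehicle libraries labelled MOLM-13 and THP-1 correlated with r between 0.987 and 0.991. Within the MOLM-13 vehicle libraries r was 0.992 to 0.994, and between MOLM-13 olaparib and vehicle libraries it was 0.984 to 0.993. These correlations describe genes and carry no p. With edgeR's quasi-likelihood test 765 of 17089 genes (4.48%) differed between the vehicle libraries of the 2 labelled lines, 202 of them at least 2-fold (1.18%). No gene met the rule for a THP-1 gene absent from MOLM-13, which asked for at least 200 counts in THP-1, summed over its 12 libraries, and at most 6 in the 6 MOLM-13 libraries with LAA. Under a rule with a lower minimum, 42 genes had a THP-1 sum of at most 12 counts and at least 20 counts in those 6 MOLM-13 libraries. The minimums of 200 and 20 counts are unlike, so the numbers of genes under the 2 rules cannot be compared.

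These 42 genes, chosen without the 6 libraries compared here, had a lower sum with olaparib. It was 20.4, 19.2 and 21.97 CPM with olaparib and 30.5, 30.0 and 28.7 CPM with vehicle, so the groups did not overlap. The sum was 10.9 ± 2.11 CPM with LAA plus olaparib and 11.4 ± 2.21 CPM with LAA (SD, n = 3), and at most 1.90 CPM in any THP-1 library. With olaparib 26 of the 42 had a lower mean, 7 of them with no overlap, and the median ratio was 0.774. Of all 16160 genes tested, 7881 had a negative fold change. The share without overlap was 7.39% of all genes tested, but only 10 of the 42 held enough counts to be tested. The others lay near the floor, with means of at most 0.40 CPM with olaparib or vehicle, where ratios vary widely. Of the 42, 18 code for proteins.

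MTAP, the methylthioadenosine phosphorylase of methionine salvage, had 1.51, 0.924 and 1.14 CPM with olaparib and 1.97, 2.45 and 1.89 CPM with vehicle. It had 0 counts in the 12 THP-1 libraries. EMD, the inner nuclear membrane protein emerin, had 2.59, 1.69 and 3.24 CPM with olaparib and 4.07, 4.01 and 5.96 CPM with vehicle, and also 0 counts in THP-1. With KLHL9, an adaptor of a ubiquitin ligase, these made up the 3 genes without a THP-1 count. Their sum was 4.23 ± 1.26 CPM with olaparib and 8.09 ± 0.846 CPM with vehicle (SD, n = 3). In MOLM-13 it was only 0.921 ± 0.373 CPM with LAA plus olaparib and 1.30 ± 0.369 CPM with LAA. The summed level of the 42 genes thus moved with the treatment, and its part in the other results was not tested. Members of higher level weighed most in the sum, such as RAB34 with means of 4.02 CPM with olaparib and 6.61 CPM with vehicle. Among the 10 members tested the lowest edgeR adjusted p was 0.532. Of these, ZNF503-AS1 and CNR2 had higher means with olaparib (1.51 and 1.47 CPM) than with vehicle (1.09 and 1.25 CPM), and the others had lower ones. A change in the mix of cells and a change of RNA per cell cannot be told apart in bulk RNA. The line names are those of the labels, and whether the cells match them was not tested. Since the libraries of the 2 labels were this close, values that recur in THP-1 may not come from a second independent line.

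**Figure D1:**
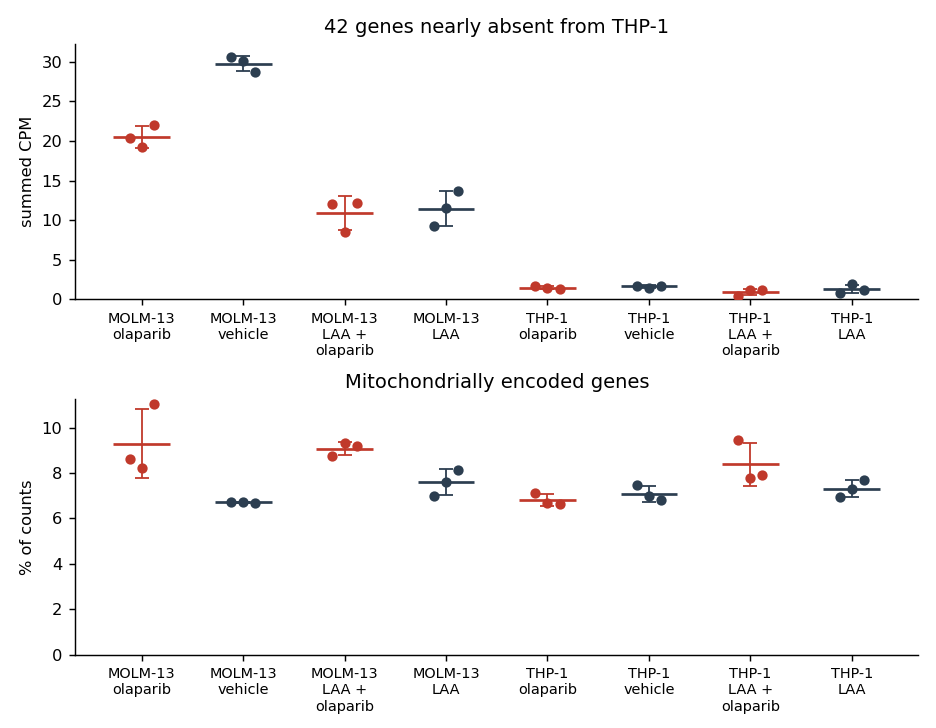
Top, summed CPM of 42 genes nearly absent from THP-1, and bottom, percent of counts from mitochondrially encoded genes, for the 24 libraries in 8 groups (points are libraries, bars mean ± SD, n = 3). In the groups labelled MOLM-13 the gene sum was 20.5 CPM with olaparib and 29.8 CPM with vehicle, and the mitochondrial share was 9.29% with olaparib and 6.71% with vehicle.

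The plot of line genes and mitochondrial share shows both quantities per library. Olaparib replicate 3 stood apart from the other 5 libraries. Among 12408 genes with a mean log2 CPM of at least 1 it was over 2-fold above all the others for 34 genes and over 2-fold below all the others for 72 genes. For olaparib replicate 1 these counts were 2 and 4, and for replicate 2 they were 0 and 0. A gene far higher in olaparib replicate 3 was PMEL, a melanosome protein gene, with 1.24, 2.31 and 12.4 CPM with olaparib and 1.07, 0.783 and 1.07 CPM with vehicle. It was chosen after its values were seen.

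Markers of other cells were low. The 8 T and NK cell markers summed to between 8.80 and 11.6 CPM with olaparib and between 9.71 and 12.04 CPM with vehicle, with 6 of 8 at 0 or under 20 counts, and most of the sum came from GNLY and NKG7. The 6 B cell markers, 2 of them under 20 counts, summed to 15.4 to 17.6 CPM with olaparib and 15.2 to 19.2 CPM with vehicle. The 8 erythroid and megakaryocyte markers, 6 of them under 20 counts, reached at most 2.11 CPM with olaparib and 1.39 CPM with vehicle. The 8 epithelial and fibroblast markers, 4 of them under 20 counts, summed to 5.55 to 5.77 CPM with olaparib and 5.37 to 6.26 CPM with vehicle. In these lists 1 to 4 members were tested and 0 passed the adjusted threshold. The collagen gene COL1A1 came nearest, with 2.21, 2.41 and 2.83 CPM with olaparib and 1.25, 1.42 and 1.86 CPM with vehicle (edgeR adjusted p = 0.55). As myeloid genes, ITGAM (integrin CD11b) had 72.1, 74.5 and 82.7 CPM with olaparib and 67.7, 77.3 and 69.6 CPM with vehicle, and the homeobox gene HOXA9 had 57.2, 53.1 and 52.0 CPM with olaparib and 62.3, 57.8 and 54.8 CPM with vehicle. Both overlapped between the groups.

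Of 16160 genes tested 1 rose and 0 fell at a Benjamini-Hochberg adjusted p under 0.05 with edgeR's quasi-likelihood test, which is 0.00619% of the genes. At an unadjusted p under 0.05 there were 1354 genes (8.38%), 641 higher (3.97%) and 713 lower (4.41%), where 808 would be the expected number without any effect. In 1117 genes (6.91%) all 3 olaparib libraries lay above all 3 vehicle libraries, and in 1194 (7.39%) all lay below. Shifts were small. Of the 12408 genes with a mean log2 CPM of at least 1, 212 had a fold of at least 1.5 either way and 19 a fold of at least 2, and the median SE of the log2 fold change was 0.116. DESeq2 called 33 genes, 18 higher and 15 lower, and limma voom called 5. The edgeR count was 0 without olaparib replicate 1 or without any 1 of the vehicle libraries, and 7 without olaparib replicate 2.

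**Figure D2:**
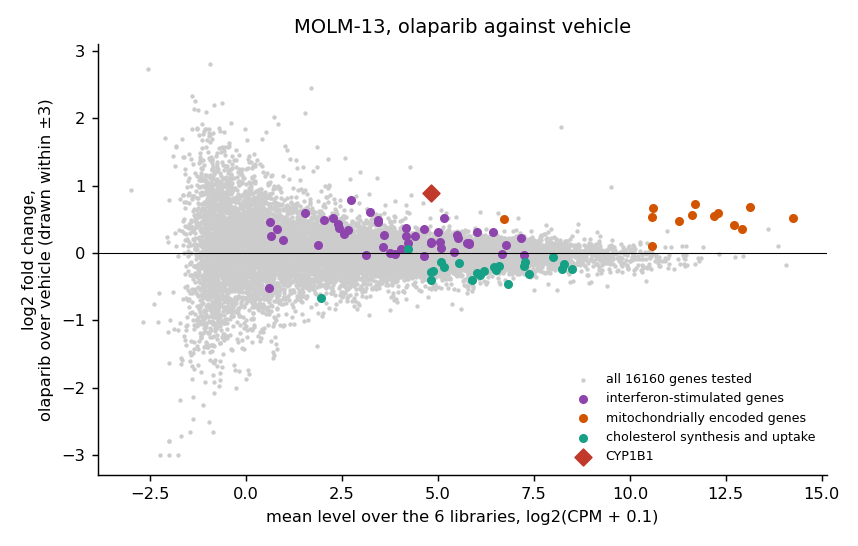
Log2 fold change of olaparib over vehicle in MOLM-13 (y axis, drawn within ±3) against the mean level over the 6 libraries (x axis, log2 of CPM + 0.1), 1 point per gene tested. CYP1B1 lies at 0.89, the 13 protein-coding mitochondrially encoded genes between 0.10 and 0.73, and 23 of 24 cholesterol genes below 0.

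The plot of all genes shows that fold changes widened toward low levels and stayed near 0 elsewhere. The protein-coding mitochondrially encoded genes lay above the cloud at the highest levels, and the cholesterol genes lay just below 0.

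The gene that rose was CYP1B1, a cytochrome P450 monooxygenase that hydroxylates estrogens and polycyclic hydrocarbons and is a standard target of the aryl hydrocarbon receptor. It lies on the minus strand of chromosome 2 (38066973 to 38109902, hg38, as the deposited table gives it). CYP1B1 had 38.5, 35.4 and 35.6 CPM with olaparib, against 19.4, 18.2 and 21.7 CPM with vehicle. Every olaparib library was above every vehicle library, by more than the spread within either group. The log2 fold change was 0.89 ± 0.12 (1.85-fold, edgeR adjusted p = 0.0138). Since strand was not recorded in library construction, reads of CYP1B1 and its antisense partner CYP1B1-AS1 cannot be told apart where they overlap. The reads assigned to CYP1B1-AS1 amounted to 0.647, 0.411 and 0.820 CPM with olaparib and 0.447, 0.0979 and 0.237 CPM with vehicle.

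CYP1B1 moved the same way in each of the 3 other comparisons of olaparib, none of which uses a library of the first. In MOLM-13 it had 35.3, 42.1 and 37.0 CPM with LAA plus olaparib, against 19.3, 19.7 and 13.8 CPM with LAA (log2 fold change 1.11 ± 0.12, edgeR adjusted p = 5.92e-06). In THP-1 it had 52.5, 58.5 and 54.7 CPM with olaparib and 25.8, 29.3 and 27.3 CPM with vehicle (1.01 ± 0.09, edgeR adjusted p = 6.78e-07). With LAA plus olaparib THP-1 had 58.5, 58.1 and 49.0 CPM, and with LAA 23.9, 20.5 and 24.8 CPM (1.25 ± 0.10, edgeR adjusted p = 8.11e-11). Neither the difference between the lines (-0.12 ± 0.16, MOLM-13 minus THP-1, edgeR adjusted p = 1) nor that without minus with LAA (-0.23 ± 0.17, edgeR adjusted p = 0.591) passed the threshold.

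**Figure D3:**
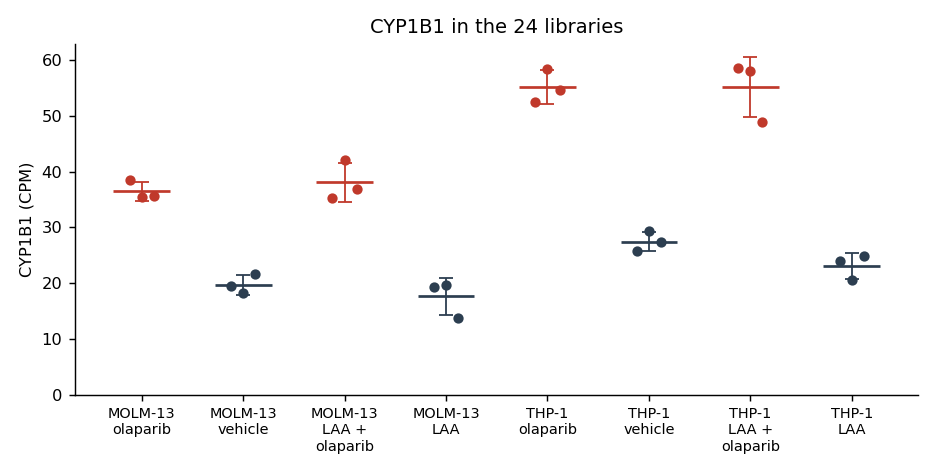
CYP1B1 level (CPM, y axis from 0) in the 24 libraries, 8 groups of 3 (points are libraries, bars mean ± SD). All 12 libraries with olaparib, red, lie between 35.3 and 58.5 CPM, and the 12 without it, dark blue, between 13.8 and 29.3 CPM.

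The plot of CYP1B1 by group shows no overlap between libraries with and without olaparib, whichever line or LAA state they carry. In MOLM-13 the call itself depended on single libraries and on the scaling. Leaving out vehicle replicate 1, 2 or 3 gave edgeR adjusted p = 0.197, 0.158 and 0.0514, and leaving out olaparib replicate 1 gave 0.0678. Scaling by total counts gave 0.0532, and limma on log2(FPKM + 1) gave 0.0945. The log2 fold change stayed between 0.83 and 0.96 when single libraries were left out, and was 0.72 on the FPKM scale.

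Other genes of the aryl hydrocarbon receptor pathway did not pass the test. AHR, the receptor itself, had 3.18, 4.31 and 5.01 CPM with olaparib and 6.66, 4.75 and 4.86 CPM with vehicle (edgeR adjusted p = 0.669). AHRR, the repressor that the receptor induces, had 142, 140 and 129 CPM with olaparib and 123, 129 and 140 CPM with vehicle, and the groups overlapped. TIPARP, a mono-ADP-ribosyltransferase and receptor target, had 17.9, 23.3 and 19.6 CPM with olaparib and 16.7, 16.9 and 16.3 CPM with vehicle, a log2 fold change of 0.29 ± 0.12 (edgeR adjusted p = 0.565). Of the 16 list members tested 1 rose and 0 fell, and their median log2 fold change was 0.02, beside 0.01 over all genes tested.

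The genes of the enzymes that olaparib inhibits did not pass the test. PARP1 had 636, 630 and 676 CPM with olaparib and 630, 657 and 651 CPM with vehicle, a log2 fold change of 0.00 ± 0.07. PARP2 had 35.5, 28.2 and 34.6 CPM with olaparib and 32.3, 28.1 and 27.8 CPM with vehicle (0.16 ± 0.10). PARP3 had 5.02, 6.47 and 5.56 CPM with olaparib and 5.41, 5.24 and 6.12 CPM with vehicle (0.02 ± 0.16). For each of these the groups overlapped.

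The immediate early genes FOS and EGR1 were higher in every olaparib library than in any vehicle library, without passing the threshold in edgeR. FOS, a subunit of the AP-1 transcription factor, had 101, 126 and 113 CPM with olaparib and 76.1, 78.9 and 70.3 CPM with vehicle, with no overlap (log2 fold change 0.59 ± 0.10, edgeR adjusted p = 0.0584). DESeq2 and limma voom did call it, at adjusted p = 7.01e-05 and 0.0322. On top of LAA the same gene rose in MOLM-13 (0.74 ± 0.10, edgeR adjusted p = 5e-05) and in THP-1 (0.31 ± 0.10, edgeR adjusted p = 0.0327), while in THP-1 without LAA the value was 0.39 ± 0.10 (edgeR adjusted p = 0.142).

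EGR1, a zinc finger transcription factor induced by growth signals through serum response factor, had 76.7, 99.0 and 71.6 CPM with olaparib and 52.9, 60.5 and 49.3 CPM with vehicle. The groups did not overlap (log2 fold change 0.61 ± 0.13, edgeR adjusted p = 0.177; DESeq2 adjusted p = 0.011). Its promoter and that of the interferon-stimulated gene IFIT3, described further on, are printed to show the elements through which these genes are classically induced. Both sequences are from RefSeq, build GRCh38.p14, plus strand, 250 bases before and 50 after the start site: chr5:138465229-138465528 for EGR1 and chr10:89327747-89328046 for IFIT3. Capitals mark CArG boxes in EGR1 and interferon-stimulated response elements (ISRE, searched on either strand as GAAA, any 2 bases and GAAA) in IFIT3.
EGR1: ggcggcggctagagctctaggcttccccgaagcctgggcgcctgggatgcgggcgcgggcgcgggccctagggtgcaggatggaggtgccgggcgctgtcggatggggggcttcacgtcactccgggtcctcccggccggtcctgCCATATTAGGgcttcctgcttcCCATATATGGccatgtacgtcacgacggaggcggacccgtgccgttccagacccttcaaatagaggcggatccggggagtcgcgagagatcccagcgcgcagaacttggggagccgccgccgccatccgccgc
IFIT3: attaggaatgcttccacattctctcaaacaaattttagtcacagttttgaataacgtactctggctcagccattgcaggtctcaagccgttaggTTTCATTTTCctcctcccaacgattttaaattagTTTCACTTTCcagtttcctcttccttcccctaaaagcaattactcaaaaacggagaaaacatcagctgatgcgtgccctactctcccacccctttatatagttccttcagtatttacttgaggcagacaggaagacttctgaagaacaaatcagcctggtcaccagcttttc
Each window holds 2 matches of its element. Among 35116 RefSeq promoter windows of the same length 1.29% hold a CArG box and 3.57% an ISRE. A match describes letters in the window and is no evidence of binding in these cells.

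The 13 protein-coding mitochondrial genes, which code for core subunits of the respiratory chain and ATP synthase, were higher in olaparib libraries as a group. All genes of the mitochondrial chromosome, with its ribosomal and transfer RNA genes, took 8.63, 8.22 and 11.02% of counts with olaparib. With vehicle they took 6.72, 6.74 and 6.67%. The means were 9.29 ± 1.51% and 6.71 ± 0.0327% (SD, n = 3). The groups did not overlap, and the exact permutation test over libraries gave p = 0.1, two-sided, the smallest that 3 against 3 can give. Without olaparib replicate 3 the difference of 2.58 percentage points was 1.72. All 13 protein-coding members had a positive fold change, 12 at an unadjusted p under 0.05 and 11 with no overlap, and the median was 0.54. Those shares compare with 3.97% and 6.91% of all genes. Of the 13, 0 passed the adjusted threshold in edgeR, while DESeq2 called 6, and limma voom called MT-ATP6. Without olaparib replicate 3 the median was 0.38.

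MT-ATP6, a subunit of the proton channel of ATP synthase, had 5094, 4927 and 6510 CPM with olaparib and 3537, 3821 and 3954 CPM with vehicle (0.55 ± 0.09, edgeR adjusted p = 0.0616). MT-CO1, the catalytic subunit of cytochrome c oxidase, had 21202, 19718 and 28517 CPM with olaparib and 16793, 15860 and 15753 CPM with vehicle (0.52 ± 0.11, edgeR adjusted p = 0.177), and the log2 fold change was 0.34 without olaparib replicate 3. The oxidase subunit gene MT-CO2 had 6708, 6266 and 10093 CPM with olaparib and 6504, 5278 and 5452 CPM with vehicle, overlapping. MT-ND3, a subunit of complex I, had 1400, 1683 and 1656 CPM with olaparib and 1589, 1274 and 1551 CPM with vehicle, also overlapping. Replicate 3 of olaparib held the highest value in 12 of the 13 genes. It also held 1082 CPM of MTATP6P1, a nuclear copy of mitochondrial sequence that shares reads with MT-ATP6, against 156 and 157 CPM in the other olaparib libraries and 135, 118 and 129 CPM with vehicle. Mitochondrial ribosomal and transfer RNA genes moved both ways. Log2 fold changes were 0.36 ± 0.08 for MT-RNR2 and 0.41 ± 0.11 for MT-TN. They were 0.07 ± 0.08 for MT-RNR1 and -0.51 ± 0.34 for MT-TT. In olaparib replicate 3 MT-TY had 0.273 CPM, against 33.3 and 43.6 CPM in replicates 1 and 2. MT-TT had 6.97 CPM there, against 33.9 and 37.8 CPM, and MT-TN had 289 CPM, against 264 and 217 CPM.

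MT-ATP6 was the only gene whose olaparib effect differed between the lines, by 0.76 ± 0.12 (MOLM-13 minus THP-1, edgeR adjusted p = 0.0136), 1 of 17089 genes tested (0.00585%), with 747 at an unadjusted p under 0.05 (4.37%). That count was 0 without MOLM-13 vehicle replicate 1, without THP-1 vehicle replicate 1 or 2, or without THP-1 olaparib replicate 2 or 3, and it was 6 and 8 without MOLM-13 olaparib replicate 1 and 2. The effect of olaparib on MT-ATP6 was 0.55 in MOLM-13 and -0.21 in THP-1. In THP-1 with olaparib alone the 13 genes had a median of -0.11. At an edgeR adjusted p under 0.05, 0 were higher and 1 lower there (against 0.184% and 0.0857% of all genes). On top of LAA in MOLM-13 the median was 0.24, with 2 higher and 1 lower (against 6.68% and 8.25%). On top of LAA in THP-1 it was 0.15, with 4 higher and 0 lower (against 10.1% and 10.2%). Nuclear-encoded respiratory chain genes in MOLM-13 with olaparib alone had a median of -0.12, with 0 higher and 11 lower of 44 at an unadjusted p under 0.05 (against 4.41% of all genes lower). Cytosolic ribosomal protein genes had a median of -0.14, with 0 higher and 15 lower of 73. Of both lists 0 passed the adjusted threshold in edgeR. For both, vehicle replicate 1 held the highest level and the groups overlapped. Without that library the medians were -0.07 and -0.06, and without vehicle replicate 2 they were -0.19 and -0.21.

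Cholesterol synthesis genes were lower in olaparib libraries as a list, without an adjusted call in edgeR. They are switched on by the transcription factor SREBP-2 when membrane sterol is low, and they run from acetyl-CoA through mevalonate and squalene to cholesterol. Of 24 tested members 23 had a negative fold change, 16 were lower and 0 higher at an unadjusted p under 0.05, and 17 were below vehicle with no overlap, beside 4.41% and 7.39% of all genes. The median log2 fold change was -0.24. The median of log2 CPM over the list, relative to the mean of vehicle, was -0.24, -0.22 and -0.20 in the olaparib libraries and 0.07, -0.05 and 0.00 in the vehicle libraries. The 3 olaparib libraries lay close together and apart from vehicle.

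Values are given from the start of the pathway to its end. HMGCS1, which makes HMG-CoA, had 100, 104 and 81.9 CPM with olaparib and 125, 138 and 133 CPM with vehicle (-0.46 ± 0.16, edgeR adjusted p = 0.512). MVD, the mevalonate diphosphate decarboxylase, had 51.0, 50.1 and 50.9 CPM with olaparib and 74.8, 56.3 and 69.9 CPM with vehicle (-0.40 ± 0.10, edgeR adjusted p = 0.25). FDPS, which makes farnesyl diphosphate, had 153, 149 and 137 CPM with olaparib and 193, 175 and 179 CPM with vehicle (-0.31 ± 0.07, edgeR adjusted p = 0.211). In each of these the olaparib libraries lay below all vehicle libraries.

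MSMO1, a sterol methyl oxidase, had 60.7, 62.5 and 59.2 CPM with olaparib and 80.4, 73.9 and 75.5 CPM with vehicle (-0.33 ± 0.08, edgeR adjusted p = 0.25). DHCR7, the last reductase of the pathway, had 56.0, 56.8 and 62.3 CPM with olaparib and 64.8, 75.6 and 75.8 CPM with vehicle (-0.30 ± 0.09, edgeR adjusted p = 0.453). INSIG1, which holds SREBP in the endoplasmic reticulum, had 324, 316 and 352 CPM with olaparib and 410, 386 and 369 CPM with vehicle (-0.23 ± 0.09). None of these 3 overlapped. DESeq2 called FDPS, MSMO1 and MVD lower, at adjusted p = 0.00963, 0.0494 and 0.0497.

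Comparisons that share no library with this one showed the same direction. On top of LAA 24 of the 24 genes fell in MOLM-13 (median -1.09, against 8.25% of all genes), and 23 of 24 fell in THP-1 (median -1.08, against 10.2%). With olaparib alone in THP-1 3 of 24 fell (median -0.21, against 0.0857% of all genes). The difference between lines was called for 0 of 24. That between olaparib without and with LAA in MOLM-13 was called for 21, all toward a smaller decrease without LAA, where 2.04% of all genes were called in either direction.

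Lipid genes next to the sterol pathway also held no adjusted call in edgeR. Of 10 fatty acid synthesis genes 0 were higher (against 3.97% of all genes) and 4 lower (against 4.41%) at an unadjusted p under 0.05. Their median was -0.05. SREBF1, the transcription factor of fatty acid synthesis, had 254, 247 and 226 CPM with olaparib and 292, 274 and 298 CPM with vehicle (-0.25 ± 0.08, edgeR adjusted p = 0.453). SCD, the stearoyl-CoA desaturase, had 747, 769 and 736 CPM with olaparib and 820, 940 and 927 CPM with vehicle (-0.25 ± 0.08). Neither gene overlapped between groups. Of 9 LXR targets and efflux genes, which respond to high sterol, 0 were higher and 1 lower, the apolipoprotein gene APOC1, with 20.7, 21.8 and 19.2 CPM with olaparib and 26.97, 24.8 and 24.5 CPM with vehicle (edgeR adjusted p = 0.532).

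Interferon-stimulated genes, a first line of antiviral defence, had 0 of 47 members past the adjusted threshold in edgeR. At an unadjusted p under 0.05, 12 were higher (against 3.97% of all genes) and 0 lower. Of the 47, 41 had a positive fold change, 8 were above vehicle with no overlap (against 6.91%), and the median was 0.25. By library the list stood at 0.24, 0.05 and 0.34 with olaparib and at -0.06, 0.06 and 0.03 with vehicle on the log2 scale. Olaparib replicate 2 lay within the vehicle range, and without replicate 3 the median of the list was 0.13.

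IFIT2, an RNA-binding antiviral protein gene, had 8.30, 7.55 and 8.84 CPM with olaparib and 5.23, 4.11 and 5.01 CPM with vehicle, with no overlap (0.78 ± 0.16, edgeR adjusted p = 0.177; DESeq2 adjusted p = 0.00862). IFIT3, its partner, whose promoter is printed above, had 10.8, 9.19 and 13.5 CPM with olaparib and 7.34, 7.10 and 7.50 CPM with vehicle (0.62 ± 0.16, edgeR adjusted p = 0.333). OAS2, which makes the 2-5A signal for RNase L, had 41.9, 31.1 and 51.5 CPM with olaparib and 24.1, 33.1 and 30.1 CPM with vehicle, and the groups overlapped (log2 fold change 0.33 without olaparib replicate 3). IFI27 and IFI44L, which rose with LAA plus olaparib over LAA (1.96 ± 0.28 and 3.06 ± 0.29), had log2 fold changes of 0.12 ± 0.34 and 0.19 ± 0.32 here.

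In MOLM-13 on top of LAA 42 of the 47 rose and 0 fell (median 1.18, against 6.68% of all genes), and in THP-1 on top of LAA 45 rose (median 1.24, against 10.1%). With olaparib alone THP-1 had 9 higher and 0 lower (median 0.26, against 0.184%). The line difference was called for 0 of 47, and the difference without minus with LAA for 29, all negative. IFIT2 rose by 2.37 ± 0.15 on top of LAA in MOLM-13, and the difference of -1.59 ± 0.21 passed the threshold (edgeR adjusted p = 0.000205).

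**Figure D4:**
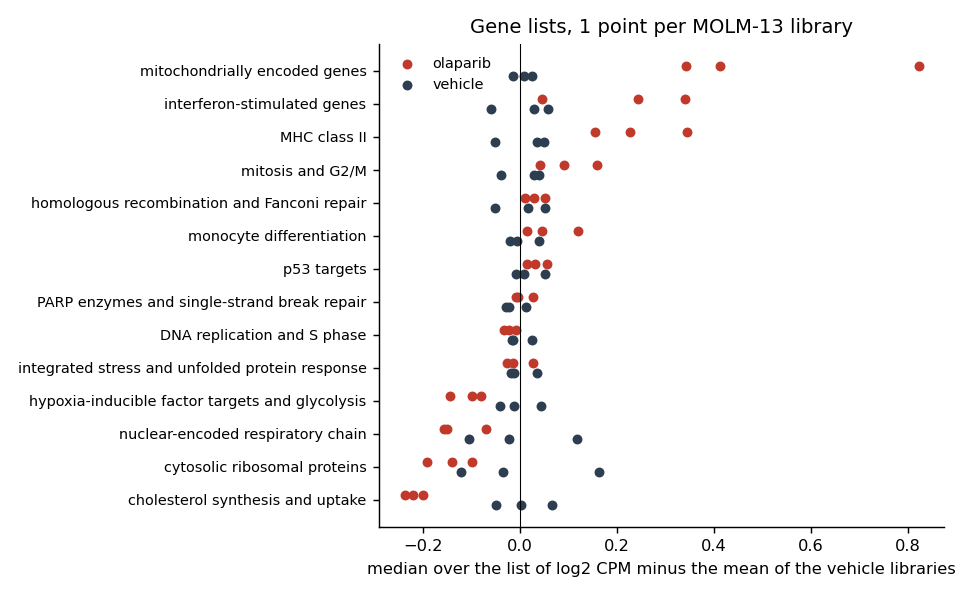
Median over each gene list of log2 CPM minus the mean of the 3 vehicle libraries (x axis), 1 point per MOLM-13 library, olaparib in red above vehicle in dark blue. Protein-coding mitochondrially encoded genes lie between 0.34 and 0.82 with olaparib, and cholesterol genes between -0.24 and -0.20, while lists of repair, replication and p53 targets overlap with vehicle.

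In the plot of list medians the mitochondrially encoded, MHC class II, mitosis, hypoxia and cholesterol lists show no overlap between the 3 olaparib and 3 vehicle libraries. The mitosis and hypoxia gaps are narrow, with 0.09, 0.04 and 0.16 for mitosis with olaparib and 0.03, 0.04 and -0.04 with vehicle. The other lists drawn overlap.

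Genes of the pathways that olaparib acts on moved little. Of 35 homologous recombination and Fanconi genes 1 was higher and 0 lower at an unadjusted p under 0.05, with a median of 0.06 (against 3.97% of all genes higher and 4.41% lower). That gene was BLM, a RecQ helicase, with 63.1, 64.8 and 62.0 CPM with olaparib and 54.3, 56.9 and 54.7 CPM with vehicle (0.20 ± 0.08, edgeR adjusted p = 0.537). Of 29 PARP enzymes and single-strand break repair genes 1 was higher and 1 lower, with a median of 0.00. They were the DNA glycosylase genes MUTYH (0.33 ± 0.10, edgeR adjusted p = 0.444) and NTHL1 (-0.40 ± 0.13, edgeR adjusted p = 0.505).

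Of 40 replication genes 1 was higher and 3 lower (against 4.41% of all genes), with a median of -0.02. The lower ones were the polymerase subunit gene POLD1, the helicase cofactor gene GINS1 and the clamp gene PCNA. PCNA had 128, 124 and 131 CPM with olaparib and 156, 140 and 132 CPM with vehicle. Of 43 mitosis genes 6 were higher (against 3.97% of all genes) and 1 lower, with a median of 0.10 that was 0.05 without vehicle replicate 3 and 0.06 without olaparib replicate 3. CDC25B, a phosphatase that activates CDK1, had 54.7, 49.6 and 56.8 CPM with olaparib and 44.4, 46.8 and 45.3 CPM with vehicle (0.24 ± 0.08, edgeR adjusted p = 0.512), and HMMR, a spindle protein gene, had 143, 136 and 151 CPM with olaparib and 112, 133 and 115 CPM with vehicle. Of 23 tested replication-dependent histone genes 1 was higher and 0 lower; most of these messages lack a poly(A) tail, and poly(A) selection recovers them poorly. The lists of repair, replication, mitosis and histones held 0 adjusted calls in edgeR.

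p53 targets had 2 of 28 higher (against 3.97% of all genes) and 1 lower (against 4.41%) at an unadjusted p under 0.05. Their median was 0.01, with 0 adjusted calls in edgeR. CDKN1A, the cell cycle inhibitor p21, had 162, 171 and 169 CPM with olaparib and 149, 143 and 142 CPM with vehicle, with no overlap (0.21 ± 0.07, edgeR adjusted p = 0.489). On top of LAA CDKN1A fell in MOLM-13 by 0.46 (SE 0.07, edgeR adjusted p = 0.000153), and the difference without minus with LAA was 0.67 ± 0.10 (edgeR adjusted p = 0.000401). MDM2, the ubiquitin ligase of p53, had 133, 122 and 118 CPM with olaparib and 114, 113 and 108 CPM with vehicle (0.16 ± 0.08, edgeR adjusted p = 0.62). GDF15, a stress cytokine gene, had 2.05, 3.03 and 1.73 CPM with olaparib and 1.30, 1.76 and 0.829 CPM with vehicle, overlapping. Apoptosis regulators had 0 of 25 past an unadjusted p of 0.05.

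Stress response genes were led by TRIB3, a pseudokinase induced by the transcription factor ATF4. It had 66.0, 67.8 and 75.0 CPM with olaparib and 55.7, 54.5 and 54.4 CPM with vehicle, with no overlap (0.35 ± 0.08, edgeR adjusted p = 0.19; DESeq2 adjusted p = 0.0141). TRIB3 rose in THP-1 with olaparib (0.75 ± 0.07, edgeR adjusted p = 1.28e-06), and the line difference of -0.40 ± 0.11 did not pass (edgeR adjusted p = 0.65). On top of LAA in MOLM-13 it rose by 1.61 ± 0.07. Of the 39 members of the integrated stress and unfolded protein list 4 were higher and 2 lower at an unadjusted p under 0.05. Their median was 0.01, and of all genes 3.97% were higher and 4.41% lower. HMOX1, heme oxygenase 1, had 10.2, 8.27 and 9.98 CPM with olaparib and 6.40, 4.70 and 5.88 CPM with vehicle, with no overlap (0.75 ± 0.17, edgeR adjusted p = 0.236; DESeq2 adjusted p = 0.044). The NRF2 list to which it belongs had 3 of 31 higher and 2 lower, with a median of -0.04, and iron handling had 1 of 19 higher and 0 lower.

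Hypoxia-inducible factor targets and glycolysis genes had 1 of 39 higher and 8 lower at an unadjusted p under 0.05, with a median of -0.09 (against 4.41% of all genes lower). The list held 0 adjusted calls in edgeR, and DESeq2 called SLC2A3 and BNIP3 lower. SLC2A3, a glucose transporter, had 8.52, 13.7 and 12.1 CPM with olaparib and 19.8, 20.01 and 17.4 CPM with vehicle (-0.73 ± 0.15, edgeR adjusted p = 0.177; DESeq2 adjusted p = 0.011). BNIP3, a mitophagy receptor, had 90.2, 84.4 and 70.8 CPM with olaparib and 121, 109 and 101 CPM with vehicle (-0.43 ± 0.10, edgeR adjusted p = 0.236; DESeq2 adjusted p = 0.038). ALDOC, an aldolase, had 32.7, 32.3 and 39.4 CPM with olaparib and 55.5, 49.7 and 47.2 CPM with vehicle (-0.54 ± 0.15, edgeR adjusted p = 0.403). Olaparib lay below vehicle in each of them with no overlap, and each fell on top of LAA in MOLM-13. There 26 of the 39 fell (against 8.25% of all genes) and 1 rose (against 6.68%).

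Of 46 monocyte differentiation genes 7 were higher (against 3.97% of all genes) and 1 lower (against 4.41%) at an unadjusted p under 0.05, with a median of 0.06. Their list medians by library overlapped between the groups. CSF3R, the granulocyte growth factor receptor, had 92.8, 87.6 and 94.6 CPM with olaparib and 73.8, 73.2 and 75.4 CPM with vehicle, with no overlap (0.31 ± 0.07, edgeR adjusted p = 0.236; DESeq2 adjusted p = 0.0152). ANPEP, the surface peptidase CD13, had 222, 209 and 246 CPM with olaparib and 184, 194 and 183 CPM with vehicle (0.27 ± 0.08). CD14 had 2.05, 2.00 and 3.10 CPM with olaparib and 1.34, 1.57 and 1.26 CPM with vehicle (0.79 ± 0.32, edgeR adjusted p = 0.55).

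MHC class II genes had a median of 0.09 that lay between 0.07 and 0.32 when single libraries were left out. Of 11 genes 0 were lower (against 4.41% of all genes) and 3 higher (against 3.97%) at an unadjusted p under 0.05. The higher ones were HLA-DRA, the invariant chain CD74 and the transactivator CIITA. The list was mixed, with 7 positive and 4 negative fold changes. With no overlap, 3 lay above vehicle and 2 below (against 6.91% and 7.39% of all genes). HLA-DRA had 9.28, 8.73 and 14.4 CPM with olaparib and 6.17, 7.49 and 6.95 CPM with vehicle (0.66 ± 0.17, edgeR adjusted p = 0.272). Olaparib replicate 3 held the highest value of all 3 genes. Without it the log2 fold change was 0.39 for HLA-DRA, 0.21 for CD74 and 0.28 for CIITA, beside 0.66, 0.32 and 0.69 with all libraries. NF-kB and inflammatory genes had 0 of 26 higher and 1 lower, which was TNF, with 21.4, 24.8 and 26.7 CPM with olaparib and 34.9, 29.2 and 27.9 CPM with vehicle (-0.33 ± 0.11, edgeR adjusted p = 0.512). DNA methylation genes had 1 of 17 higher, EGR1, and 0 lower. In edgeR none of these 4 lists held an adjusted call, while DESeq2 called CSF3R and EGR1.

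The KMT2A fusion program had 0 of 30 higher and 3 lower (against 4.41% of all genes) at an unadjusted p under 0.05, with a median of -0.02. The 3 were FLT3, MEIS1 and IGF2BP3. FLT3 had 28.9, 23.6 and 22.3 CPM with olaparib and 37.8, 36.1 and 34.0 CPM with vehicle (-0.53 ± 0.13, edgeR adjusted p = 0.261). MEIS1, a homeobox partner of HOXA9, had 2.00, 1.69 and 1.78 CPM with olaparib and 3.40, 4.75 and 2.92 CPM with vehicle (-1.01 ± 0.35, edgeR adjusted p = 0.512). Both were lower still in THP-1 vehicle, at 9.24 ± 0.409 CPM for FLT3 and 0.127 ± 0.0759 CPM for MEIS1 (SD, n = 3). In MOLM-13 with LAA FLT3 stood at 7.83 ± 1.65 CPM. These genes moved together with the sum of the line genes, and its part in their values was not tested.

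The 12 lower genes with the smallest p and no overlap were SOCS2, ICAM5, PRSS57, SLC2A3, MATK, FDPS, KCTD15, BNIP3, GAL, HPDL, GBGT1 and MVD. SOCS2, an inhibitor of cytokine receptor signalling, had 12.2, 14.6 and 14.3 CPM with olaparib and 22.6, 22.8 and 20.9 CPM with vehicle (-0.68 ± 0.13, edgeR adjusted p = 0.163; DESeq2 0.00289, limma voom 0.0494). ICAM5, a cell adhesion molecule, had 2.16, 2.21 and 1.46 CPM with olaparib and 4.74, 5.28 and 5.05 CPM with vehicle (-1.37 ± 0.28, edgeR adjusted p = 0.177; DESeq2 0.00466, limma voom 0.0494, limma on log2(FPKM + 1) 0.0171). PRSS57, a serine protease of neutrophil granules, had 14.9, 14.2 and 12.2 CPM with olaparib and 21.3, 21.1 and 19.4 CPM with vehicle (-0.58 ± 0.12, edgeR adjusted p = 0.177; DESeq2 0.0152). In the libraries with LAA, which the comparison does not use, 4 of the 12 had a mean at least 1.5-fold above THP-1 in MOLM-13 (SOCS2, ICAM5, PRSS57 and SLC2A3), and 0 a mean at least 1.5-fold below. Of the 12 higher genes with the smallest p, 0 were above THP-1 by that much and 3 below (FOS, IFIT2 and TRIB3). SOCS2 passed narrowly, at 1.503-fold. The share of all genes tested that meet this rule on means alone was not determined, so these counts have no baseline.

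A stricter rule was applied over all tested genes, which asked for means at least 1.5-fold apart and no overlap between the 6 MOLM-13 and the 6 THP-1 libraries with LAA. At an unadjusted p under 0.05, 4.41% of all genes tested were lower with olaparib and 3.97% were higher. Of 52 genes above THP-1 in MOLM-13 by this rule, 17.3% were lower and 5.77% higher, and the median was -0.06. Of 154 genes lower in MOLM-13 by this rule, 6.49% were higher with olaparib and 5.19% lower, and the median was 0.05.

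The 24 genes were then looked up in the other comparisons of olaparib. Of the 12 higher genes, 12 kept their sign and 5 rose on top of LAA in MOLM-13 (6.68% of all genes rose there). In THP-1 with olaparib 5 had the same sign and 3 rose (CYP1B1, IFIT2 and TRIB3; 0.184% of all genes), and on top of LAA in THP-1 11 had the same sign and 7 rose (10.1%). Of the 12 lower genes, 10 kept their sign and 5 fell on top of LAA in MOLM-13 (ICAM5, SLC2A3, FDPS, BNIP3 and MVD; 8.25%). In THP-1 with olaparib 12 had the same sign and 0 fell (0.0857%), and on top of LAA in THP-1 7 had the same sign, 4 fell (10.2%) and KCTD15 rose.

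**Figure D5:**
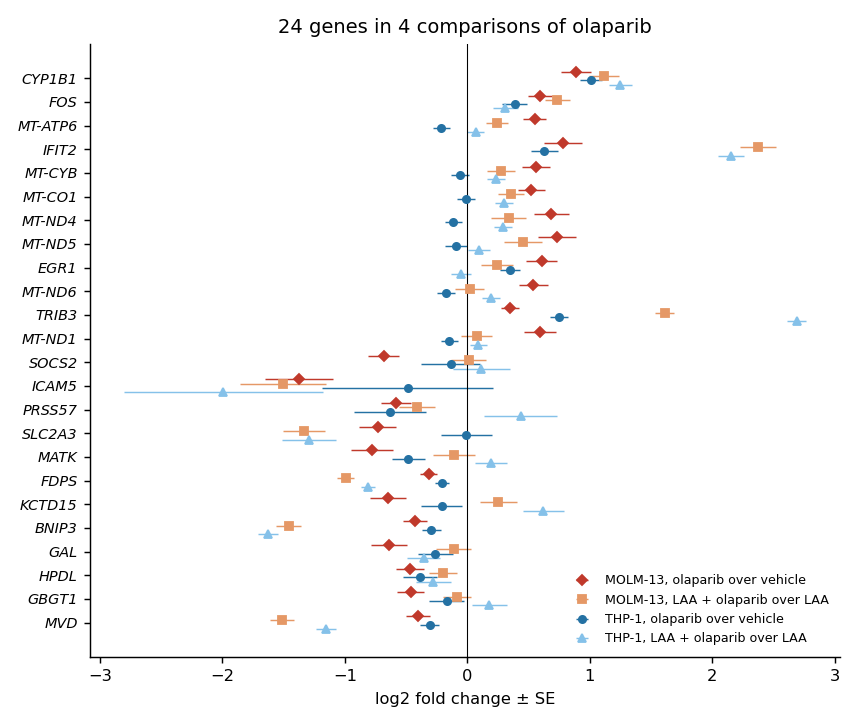
Log2 fold change ± SE (x axis) of the 12 higher and 12 lower genes with the smallest p in MOLM-13 with olaparib, in that comparison (red diamonds) and in 3 comparisons that share no library with it (n = 3 libraries per group). CYP1B1 lies between 0.89 and 1.25 in all 4, IFIT2, TRIB3, BNIP3 and MVD lie further from 0 with LAA, and the mitochondrially encoded genes lie between -0.21 and -0.01 in THP-1 with olaparib.

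The plot of these 24 genes shows which of them recur. CYP1B1 is alike in all 4 comparisons, while SOCS2, at -0.68 with olaparib alone in MOLM-13, is near 0 on top of LAA (0.01) and at -0.14 in THP-1.

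The wider set of genes at an unadjusted p under 0.05 was treated the same way. Of the 641 higher genes, 108 rose on top of LAA in MOLM-13 (16.8%, against 6.68% of all genes). Of the 627 tested in THP-1, 17 rose with olaparib there (2.71%, against 0.184%), and these 17 were 56.7% of the 30 genes that rose in THP-1. Of the 713 lower genes, 239 fell on top of LAA in MOLM-13 (33.5%, against 8.25%) and 8 fell in THP-1 with olaparib (1.15%, against 0.0857%), 57.1% of the 14 that fell there. On top of LAA in THP-1, 121 of the 627 higher genes tested there rose (19.3%, against 10.1%). Of the 697 lower genes tested there 156 fell (22.4%, against 10.2%). Opposite calls numbered 20 and 7 on top of LAA in MOLM-13, 0 and 0 in THP-1 with olaparib, and 36 and 44 on top of LAA in THP-1.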

How the data were processed

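Per the labels, poly(A)-selected RNA of 24 libraries was made into unstranded libraries. HISAT2, SAMtools and DESeq2 and the build hg38 are named in the submitters' processing notes, with versions, counting tool and annotation not given in the sources used here. Deposited by the authors were whole-number counts for 58735 genes and, computed from them, FPKM values, used here in 1 alternative with log2(FPKM + 1).

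The 12 MOLM-13 libraries were fitted together with edgeR 4.0.16 (R 4.3.3): filterByExpr, TMM scaling, quasi-likelihood F test, Benjamini-Hochberg adjustment, threshold 0.05. THP-1 was fitted likewise, and line differences over all 24 libraries. Printed CPM use TMM factors over 24 libraries. Alternatives used limma 3.58.1 and DESeq2 1.42.0. The scripts were tested on simulated data. Line-specific genes, lists (28, described by counts and medians, without a set test) and the genes named were chosen with earlier results of these data known. Named were the called gene, the 12 higher and 12 lower protein-coding genes of smallest p without overlap and with mean log2 CPM of at least 1, up to 3 members per list under an unadjusted p of 0.05, and a fixed panel. Of the list symbols 53 were found under another name and 3 were not found. One panel gene is not reported here.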

Additional observations from a re-analysis of the deposited data

Results flagged for a closer look

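MT-ATP6 was taken up because its olaparib effect differed between the lines by 0.76 on the log2 scale (MOLM-13 minus THP-1, edgeR adjusted p = 0.0136).

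For 24 named genes the effect of olaparib without LAA minus that with LAA in MOLM-13 passed the same test. Over all 16160 genes tested 329 passed (2.04%), 214 with a positive and 115 with a negative difference. Negative differences on the log2 scale, meaning a higher fold change with LAA, were -1.59 for IFIT2, -1.10 for IFIT3, -1.35 for OAS2, -1.84 for IFI27 and -2.87 for IFI44L among interferon-stimulated genes. The other negative differences were -1.27 for TRIB3, -2.68 for GDF15, -0.90 for KCTD15 and -0.89 for FLT3.

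Named genes came in part from the lipid lists and the panel, so they do not describe the make-up of all positive differences. Positive differences on the log2 scale among named cholesterol genes were 0.68 for FDPS, 1.11 for MVD and 1.47 for MSMO1. They were 1.69 for DHCR7, 1.26 for HMGCS1 and 1.19 for INSIG1. Among named fatty acid genes they were 0.59 for SREBF1, 1.14 for SCD and 1.57 for FADS2. The remaining ones were 1.03 for BNIP3, 2.25 for ALDOC, 0.67 for CDKN1A, 0.61 for AKR1C2, 1.08 for TNF and 0.53 for ITGAM. Reads of AKR1C2 can be shared with its near-identical neighbours.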

How the results depend on the processing

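The count of 1 gene changed by olaparib in MOLM-13 became 194 without a filter on low counts, 33 with DESeq2, 5 with limma voom, 4 with a replicate block (CYP1B1, MT-ATP6, FOS and EGR1) and 0 with total-count scaling (1340 genes at an unadjusted p under 0.05), and ranged from 0 to 7 when single libraries were left out; the cause was not tested. Same-numbered olaparib and vehicle libraries did not deviate together (correlations -0.026, -0.064 and -0.052). This shows no shared deviation and cannot settle whether the numbers pair the samples. The log2 fold change of CYP1B1 missed the threshold at 0.87 when libraries were scaled by total counts and at 0.72 on FPKM values. It was 0.83 to 0.96 with single libraries left out, passing without olaparib replicate 2 or 3 and missing without olaparib replicate 1 or any vehicle library. Without single libraries, counts ranged from 1029 (without LAA plus olaparib replicate 2) to 3168 on top of LAA in MOLM-13, from 15 (without THP-1 vehicle replicate 3) to 79 (without THP-1 olaparib replicate 3) in THP-1, and from 0 to 8 for the line difference. The THP-1 count was 124 without the filter and 94 with DESeq2, and the line difference 34 and 3. The difference without minus with LAA, 329 genes, became 555 without the filter and 550 with DESeq2, and ranged from 206 to 496 without single libraries; these alternatives were chosen after seeing the data. The line gene ratio was 0.689, and 0.523 for genes with 0 THP-1 counts.

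The log2 fold change of PARP1 in MOLM-13 with olaparib, 0.00, was -0.0150 without the filter, -0.0117 with total-count scaling and -0.00039 without mitochondrially encoded genes. Leaving out single libraries gave -0.0279 to 0.0220 for PARP1, -0.0793 to 0.103 for PARP3, -0.19 to 0.776 for IFI27 and -0.16 to 0.399 for IFI44L. Of the named genes' other results 1242 kept their direction and side and 67 passed the threshold in place of missing it. Depth limits genes of a few CPM, where a fold of 1.5 can lie within the spread, though not for every such gene.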
